A study of Sus scrofa with 15 samples.

Results

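Backfat of Iberian pigs fed either olive by-product was compared with backfat of control pigs by pooling both diets, and the genes described are those for which all 10 olive-fed pigs lay outside the range of the 5 control pigs, on the same side. All 15 libraries of the study were used. Of 30477 genes counted, 14918 passed the filter on low counts and 118 met this rule, 54 of them higher (0.362% of the genes tested) and 64 lower (0.429%) with the olive diets. The genes were selected by the measured values of these pigs, so their levels are given as a description, and every one of the 118 had passed the filter.

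RNA came from the subcutaneous fat of the back, taken by biopsy under sedation at the end of the growing period and before fattening, from Iberian pigs. The control group (C, 5 pigs) received a restricted compound feed without olive by-products, which contained added animal fat. The dry olive pulp group (DOP, 5 pigs) received a compound feed made with the pulp. The wet crude olive cake group (WCOC, 5 pigs) received a compound feed and, at free choice, a silage of the cake with straw. Both olive groups had their compound feed at a lower share of free intake than C. By weight, however, the group mean of feed eaten per day was higher in DOP than in C. In WCOC it was slightly lower for the compound feed, and silage was eaten in addition. Each diet was fed in a pen of its own, the intake of single pigs was not measured, and the animals sequenced were picked for the amount and quality of their RNA. Pen, feeding level and feed composition differ with the diet and cannot be told apart from the by-product. Each library is 1 pig, so the p-values measure the spread between these pigs.

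Backfat consists mainly of adipocytes, which store triglyceride and secrete hormones such as adiponectin, together with blood vessels, fibroblasts and macrophages. Macrophages of fat take up lipid and debris from adipocytes and digest them in lysosomes. Both cell types take up cholesterol from lipoproteins and make it from acetyl-CoA, and transcription factors of the SREBP family drive both routes when membranes are short of sterol. In a piece of whole tissue, fewer cells of a type and less RNA per cell cannot be told apart.

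The 15 files held 22373715 to 34745218 counts on genes per pig. Levels are given as normalised counts, in counts per 1000000 counts (CPM) after TMM scaling, and differences as log2 fold change (log2FC) with the standard error (SE) of edgeR's quasi-likelihood fit. The run identifiers place control pigs 1 to 4 and the WCOC pigs on flow cell A, and control pig 5 and the DOP pigs on flow cell B. The summed level of the skeletal muscle list was 231 to 5246 CPM in C, 209 to 63500.0 CPM in DOP and 198 to 1153 CPM in WCOC. DOP pig 5 had the highest value, and DOP pig 2 the next (12950.0 CPM) together with the highest sum of red blood cell genes (15840.0 CPM). Defining adipocyte genes were abundant in every pig, since the adipocyte list summed to 21210.0 CPM or more in each library.

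In the comparison of the mean of both olive diets with C, 84 of 14918 genes were differentially expressed and higher (0.563%) and 355 were lower (2.38%), taking genes with an adjusted p under 0.05 whose log2FC was 0.58 or more in either direction. Among the 118 genes outside the control range, 68 were called, 25 of the 54 higher genes and 43 of the 64 lower ones. The rule reads the same 15 values as the fit, so these calls and the adjusted p-values given with the genes are no separate evidence. Another 22 higher and 15 lower genes had an adjusted p under 0.05 but a log2FC below the limit, and 7 and 6 had a larger adjusted p. The size of the differences was modest among the higher genes, with a median log2FC of 0.57 (0.16 to 1.72), and larger among the lower genes, with a median of −0.97 (−0.18 to −3.51), beside a median of 0.01 over all genes tested. Without DOP pigs 2 and 5, the animals with the most skeletal muscle RNA, 54 genes were called higher and 249 lower in all, and 20 and 41 of the members. The calls over all genes fell to 26 higher and 169 lower without control pig 3 and to 30 and 151 without control pig 5. Without control pig 4 or WCOC pig 1 the higher calls were 47 and 54.

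The outcome of the range rule turned on a few libraries. Control pig 1 was the control closest to the olive-fed pigs for 17 higher and 30 lower genes. Among the olive-fed animals, DOP pig 1 was the closest to the controls for 17 lower genes and WCOC pig 2 for 15. Without control pig 1, 117 genes met the rule as higher and 193 as lower, and without control pig 2 the counts were 118 and 126. Without WCOC pig 2 they were 84 and 107, without DOP pig 1 there were 101 lower genes, and without control pig 5 there were 85 higher genes. A rule on ranges is easier to meet with 1 pig fewer. Scaling by library size alone left 32 higher and 26 lower genes.

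**Figure D1:**
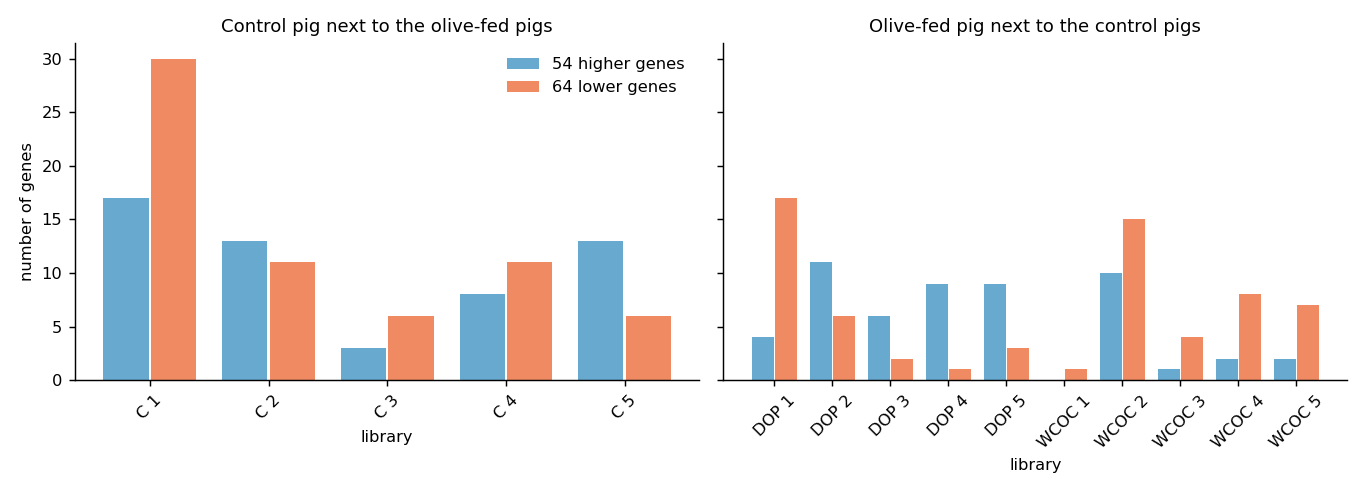
Number of genes (y axis) for which each library (x axis) held the value next to the other group, for the controls on the left and the olive-fed pigs on the right, with the 54 higher and the 64 lower genes as separate bars. Control pig 1 has the tallest bars on the left (17 and 30), and DOP pig 1 and WCOC pig 2 have the most lower genes on the right (17 and 15).

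The distance between the groups was small for many genes. The nearest control and olive values lay less than 5% apart for 33 of the higher and 30 of the lower genes, and more than 25% apart for 2 and 5. Just inside the rule, GIGYF1 reached 57.785 CPM in the highest control and 57.814 CPM in the lowest olive-fed pig, followed by RIMKLB (23.5 and 23.5 CPM) and OR6N2 (4.91 and 4.92 CPM). WIPI2 and PREX2 were just outside it on the higher side, with lowest olive values of 71.1 and 66.4 CPM under highest controls of 71.117 and 66.5 CPM. On the lower side STEAP3 (43.444 CPM in the lowest control and 43.436 in the highest olive-fed pig), HERC4 and SUCNR1 were the last inside. MKKS, TMEM192 and ITGAM were the first outside, and ITGAM, an integrin chain of phagocytes, missed by 28.7 CPM in DOP pig 2 against 28.6 CPM in control pig 2.

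Genes known from phagocytes were lower with both olive diets. In the list of 25 phagocyte receptors and signalling genes, 16 were called lower and 0 higher, 4 of them outside the control range (ITGB2, FERMT3, LAT2 and NFAM1), and the median log2FC was −1.30. Over all genes tested, 2.38% were called lower and 0.563% higher, which stands beside the counts of every list below. The lists were written with earlier results of these data known, so their counts are a description. ITGB2, the shared chain of the leukocyte integrins, had 28.3, 38.6, 94.5, 40.8 and 104 CPM in control pigs 1 to 5. It had 22.8, 25.4, 10.9, 13.3 and 9.13 CPM in the DOP pigs and 14.3, 27.4, 14.9, 14.1 and 25.5 CPM in the WCOC pigs. Control pigs 3 and 5 were far above the other 3 controls, and the highest olive-fed pig, WCOC pig 2, came within 1 CPM of control pig 1. The pooled log2FC was −1.79 (SE 0.32, adjusted p = 0.00833, edgeR).

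FERMT3, which activates integrins in blood cells, fell from 13.1 to 40.4 CPM in the controls to 4.95 to 12.3 CPM in the olive-fed pigs (log2FC −1.52, SE 0.31). LAT2, an adaptor of immune receptor signalling, had a log2FC of −1.30 (SE 0.26). NFAM1, a receptor with an activation motif in its tail, fell furthest of the 4 listed genes, with 2.599, 3.72, 9.56, 2.22 and 8.05 CPM in C, 1.25, 1.43, 0.988, 0.976 and 0.662 CPM in DOP and 1.05, 2.21, 0.751, 1.08 and 1.24 CPM in WCOC. Its highest olive value, in WCOC pig 2, was next to control pig 4. FERMT3 and LAT2 were not called without control pig 5, FERMT3 also not without control pig 3. Within flow cell A alone, ITGB2, FERMT3 and LAT2 were not called. In DOP against C, FERMT3 and LAT2 were not called (adjusted p = 0.0633 and 0.0533, edgeR), and in WCOC against C both were called.

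Further genes of phagocyte function were lower. GP91-PHOX (CYBB), the electron-carrying chain of the phagocyte NADPH oxidase, had 15.5, 19.8, 47.3, 19.2 and 68.4 CPM in the control pigs. The DOP pigs had 12.8, 10.98, 6.76, 6.87 and 4.43 CPM and the WCOC pigs 6.68, 14.4, 5.29, 6.83 and 8.64 CPM. Each diet had the same difference from C, −2.03 on the log2 scale, and no value overlapped with the controls, as the rule requires. Of the 6 oxidase genes 3 were called lower, with a list median of −0.62. TLR8, an endosomal sensor of single-stranded RNA, was at 5.03 to 26.4 CPM in C and 1.01 to 4.72 CPM with the olive diets (log2FC −1.88, SE 0.41). TLR8 was not called without control pig 3 or 5, within flow cell A, or in DOP against C (adjusted p = 0.0944, edgeR). It was the member of the toll-like receptor list outside the control range, and 2 of 10 genes of that list were called lower.

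CTSS encodes cathepsin S, the lysosomal protease that trims antigen-presenting molecules. The controls had 66.6, 78.4, 222, 93.3 and 283 CPM, the DOP pigs 52.4, 48.98, 38.8, 42.6 and 33.7 CPM and the WCOC pigs 39.4, 61.7, 36.7, 45.3 and 52.2 CPM. As with ITGB2, control pigs 3 and 5 were the high values, and all olive-fed pigs lay in a narrow band below control pig 1 (log2FC −1.72, SE 0.28, adjusted p = 0.00643, edgeR). GLA, the lysosomal alpha-galactosidase, differed less and more evenly, at 15.2 to 26.7 CPM in C and 10.3 to 14.2 CPM in the olive-fed pigs (log2FC −0.74, SE 0.13). In the list of 27 lysosomal enzyme genes 8 were called lower and 0 higher, and their median log2FC was −0.31. Further lysosomal members, chosen after their values were seen, were SCARB2, the receptor that carries glucocerebrosidase to lysosomes (log2FC −0.39, SE 0.07), LYSET, which helps to sort lysosomal enzymes (−0.34, SE 0.09, adjusted p = 0.0505, edgeR), and MFSD12, a transporter of lysosomes and melanosomes (−1.36, SE 0.21).

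Both complement members that met the rule fell. C3, the central protein of the cascade, was at 19.3, 17.5, 42.3, 16.1 and 43.4 CPM in the control pigs, 14.8, 9.36, 9.26, 7.29 and 6.31 CPM in DOP and 10.1, 15.3, 9.08, 8.07 and 14.1 CPM in WCOC. WCOC pig 2 and DOP pig 1 were the olive-fed pigs closest to the lowest control, pig 4. CLU, the secreted chaperone clusterin, which binds complement and lipoproteins, had 44.9, 57.5, 203, 63.1 and 147 CPM in C, 41.1, 23.96, 38.3, 28.95 and 24.1 CPM in DOP and 18.7, 40.5, 23.4, 30.3 and 19.4 CPM in WCOC (log2FC −1.85, SE 0.31). C3, like CTSS, was not called within flow cell A alone. The other 11 complement genes tested were not called, and the list had a median log2FC of −0.59.

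**Figure D2:**
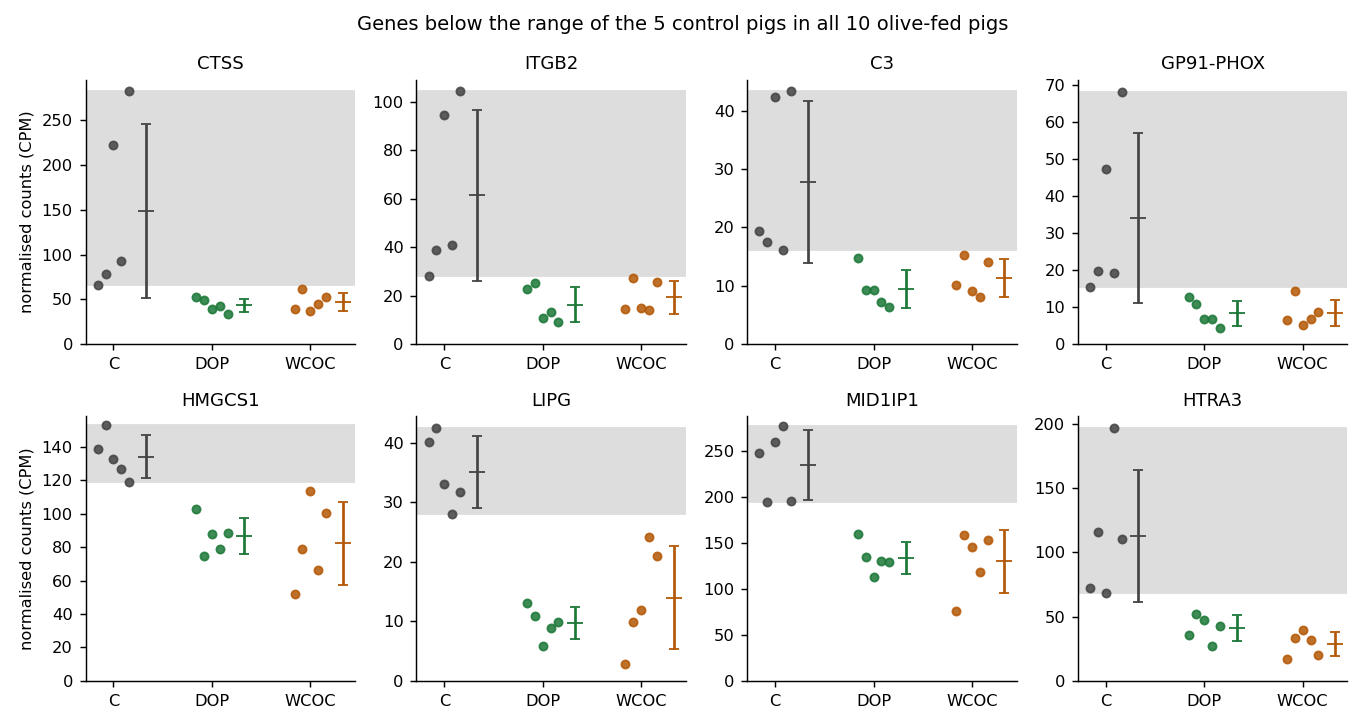
Normalised counts (CPM, y axis) of 8 genes that lay below the control range in every olive-fed pig. Points are pigs, bars beside them are the mean and SD of 5 pigs, and the grey band spans the controls. In the upper row control pigs 3 and 5 stand above the other controls, while in the lower row the controls are closer together except for 1 value of HTRA3.

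Several of the genes with the steepest falls belonged to none of the lists. ST14, the membrane protease matriptase, had 2.65, 5.21, 17.2, 5.65 and 21.6 CPM in C, 1.89, 1.36, 1.36, 1.24 and 0.697 CPM in DOP and 0.622, 2.13, 0.588, 1.14 and 1.33 CPM in WCOC. Control pig 1 was the control nearest to the olive values, next to WCOC pig 2, and the pooled log2FC was −3.09 (SE 0.43). ATP8B4, a lipid flippase, showed a wider gap, from 3.96 CPM in the highest olive-fed pig to 5.74 CPM in the lowest control (log2FC −2.21, SE 0.31). STXBP5L, which restrains vesicle fusion, had a log2FC of −1.75 in DOP and −2.97 in WCOC. The gene identified as CPSF6 (ENSSSCG00000038031), by that symbol a factor of messenger RNA 3' processing, was at 11.7 to 50.7 CPM in C and 1.57 to 9.32 CPM in the olive-fed pigs (log2FC −2.57, SE 0.40). The symbol was taken from a table of gene IDs. LYZ, which encodes the lysozyme of phagocytes, is the next gene to CPSF6 in RefSeq, and the ID paired with LYZ had 0 counts in all 15 libraries. Whether the reads counted for ENSSSCG00000038031 come from CPSF6 or LYZ was not tested.

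The unnamed genes ENSSSCG00000008769 and ENSSSCG00000044695 had the lowest log2FC of all the members, −3.51 (SE 0.52) and −3.24 (SE 0.51). The first had 3.97, 7.903, 25.96, 11.96 and 33.96 CPM in the control pigs. Its olive-fed values were 3.66, 0.755, 0.556, 1.202 and 0.453 CPM in DOP and 1.604, 2.695, 1.53, 1.81 and 0.59005 CPM in WCOC, and DOP pig 1 alone approached control pig 1. Other members of this kind, chosen after their values were seen, were MYO1F, a myosin of immune cells (log2FC −1.42), RPS6KA1, a kinase downstream of ERK (−1.51), and CD180, a toll-like receptor homologue (−1.61). For all 3 the highest controls were pigs 5 and 3.

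The lists of macrophage genes behaved differently from the range rule. In the list of lipid-associated and osteoclast-like macrophages, 13 of 16 genes were called lower and 0 higher, and the median log2FC was −2.50, the lowest of the 28 lists. This list was written with earlier results of these data known, so its counts and rank are no separate evidence. None of the 16 met the range rule, although 5 had at least 9 olive-fed pigs below every control. SPP1, or osteopontin, ranged from 45.9 to 746 CPM in C and from 2.44 to 79.03 CPM with the olive diets (log2FC −4.08, SE 0.61). The general macrophage identity list had 2 of 15 genes called lower and a median of −0.69. Its summed level was 320 to 777 CPM in C, 223 to 535 CPM in DOP and 176 to 413 CPM in WCOC, and these ranges overlapped. CSF1R, the receptor for the macrophage growth factor, was not called (91.03 to 243 CPM in C and 49.01 to 133 CPM with the olive diets, adjusted p = 0.0943, edgeR).

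The level of macrophage RNA was also entered in the fit. With the mean of the macrophage identity list as a covariate, edgeR called 0 genes in either direction, against 84 higher and 355 lower without it. In that fit 1132 genes had an unadjusted p under 0.05, limma-voom likewise called 0, and the lowest adjusted p was 0.147. The median log2FC was 0.45 in the higher members and −0.58 in the lower ones, beside 0.0006 over all genes tested, and all 118 kept their sign. The members were chosen on these same values, so their medians and signs in this fit are no separate evidence. For the phagocyte genes the estimates shrank, to −0.83 for ITGB2 and −0.94 for GP91-PHOX, whereas HTRA3 was at −1.84 and PDE2A at 0.65. HTRA3 and PDE2A did not shrink, from −1.72 and 0.62, but lost the call with a larger SE (0.31 and 0.11 against 0.24 and 0.09). The covariate itself differs between the diets, so the loss of the calls cannot be assigned to macrophage RNA. The part of macrophage RNA in the other results was not tested further.

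**Figure D3:**
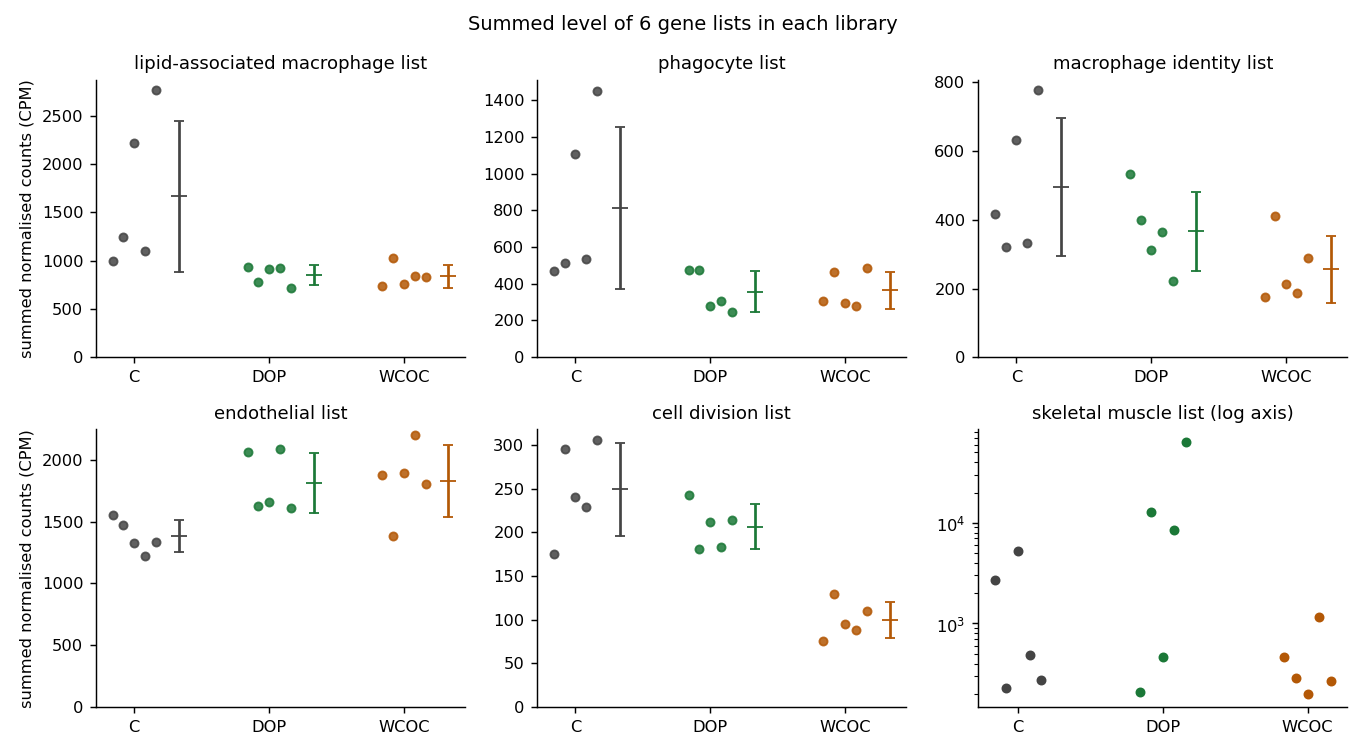
Summed normalised counts (CPM, y axis) of 6 gene lists in every pig, with the mean and SD of 5 pigs beside the points, except for the skeletal muscle list, which is on a log axis without means. The 5 control pigs spread widely for the macrophage and phagocyte lists, WCOC pigs lie below the others for cell division, and single DOP pigs reach the highest skeletal muscle values.

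Genes of sterol and lipoprotein handling were also among the lower members. HMGCS1, the cytosolic synthase that commits acetyl-CoA to the mevalonate pathway, had 138, 153, 133, 127 and 119 CPM in control pigs 1 to 5. The DOP pigs had 103, 74.8, 87.8, 79.1 and 88.1 CPM and the WCOC pigs 52.1, 78.95, 113, 66.5 and 100.1 CPM. The highest olive-fed pig was WCOC pig 3 and the lowest control was pig 5. The log2FC was −0.67 (SE 0.14, adjusted p = 0.017, edgeR). Against C it was −0.63 in DOP, which was not called (adjusted p = 0.0898, edgeR). In WCOC it was −0.71 and was called (adjusted p = 0.0192, edgeR).

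In the cholesterol list 3 of 18 genes were called lower and 0 higher, 17 of the 18 had a log2FC below 0, and the list median was −0.41. HMGCS1 was not called with flow cell as a covariate or within flow cell A alone. SOAT1, which esterifies cholesterol for storage, and LIPG, a lipase that acts on lipoproteins, were lower too. Both were chosen after their values were seen. SOAT1 had 26.7 to 48.01 CPM in C and 18.6 to 25.04 CPM with the olive diets (log2FC −0.64, SE 0.13). LIPG had 40.2, 42.5, 33.03, 28.1 and 31.8 CPM in C, 13.1, 10.8, 5.896, 8.86 and 9.901 CPM in DOP and 2.88, 9.85, 11.9, 24.2 and 20.98 CPM in WCOC (log2FC −1.59, SE 0.32), and WCOC pigs 4 and 5 were the olive-fed pigs nearest to the controls.

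MID1IP1 binds acetyl-CoA carboxylase and promotes its activity in fatty acid synthesis. It was the member of the fatty acid synthesis list outside the control range. The controls had 248, 194, 259.6, 277 and 195 CPM, the DOP pigs 159.7, 135, 112, 130.4 and 129 CPM and the WCOC pigs 75.5, 158, 145, 118 and 153 CPM. The groups were separated by a gap from 159.7 to 194 CPM (log2FC −0.83, SE 0.15, adjusted p = 0.00826, edgeR). In this list 2 of 18 genes were called lower, the other being ME1, and 8 differed between WCOC and DOP, against 7.76% of all genes tested. FASN, the synthase itself, was not called (log2FC −0.72, SE 0.27, adjusted p = 0.158, edgeR).

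The upstream sequences, 250 bases before the RefSeq start on Sscrofa11.1, are shown for HMGCS1, from cholesterol synthesis, and for 2 phagocyte members picked because they hold the motif described. HMGCS1 (minus strand, chr16:27957262-27957511) holds the SREBP core TCACNCCAC, in capitals, at position −181 from its start. ITGB2 (minus strand, chr13:207544109-207544358) and TLR8 (plus strand, chrX:9551034-9551283) each hold the core of PU.1, a transcription factor of myeloid cells (GAGGAA on either strand, in capitals), at positions −36 and −135. The windows of FERMT3, LAT2, NFAM1, GP91-PHOX and CTSS have no match to these letters.
HMGCS1: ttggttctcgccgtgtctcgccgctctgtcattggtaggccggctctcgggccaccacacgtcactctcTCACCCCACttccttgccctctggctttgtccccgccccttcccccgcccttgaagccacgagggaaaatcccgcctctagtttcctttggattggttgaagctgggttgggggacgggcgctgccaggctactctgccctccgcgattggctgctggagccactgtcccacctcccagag
ITGB2: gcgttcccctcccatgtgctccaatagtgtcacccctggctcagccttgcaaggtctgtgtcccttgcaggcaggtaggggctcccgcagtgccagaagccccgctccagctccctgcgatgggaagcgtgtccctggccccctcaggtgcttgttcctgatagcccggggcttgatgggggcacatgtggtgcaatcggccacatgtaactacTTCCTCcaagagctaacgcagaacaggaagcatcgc
TLR8: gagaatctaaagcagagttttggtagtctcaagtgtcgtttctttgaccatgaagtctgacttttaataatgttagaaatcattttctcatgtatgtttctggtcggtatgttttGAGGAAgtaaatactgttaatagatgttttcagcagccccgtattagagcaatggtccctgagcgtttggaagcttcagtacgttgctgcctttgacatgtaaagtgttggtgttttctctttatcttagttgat

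Across all 19506 promoter windows of this length, the SREBP core was found on either strand in 0.805%, against 1 of 51 windows of the lower genes and 0 of 37 of the higher ones. This motif was added after the genes were seen. The PU.1 core was in 22% of all windows, in 10 of 37 windows of the higher genes (27%) and in 7 of 51 windows of the lower genes (13.7%). Among the higher genes, the windows of LRP2BP and ANKRD37 overlap, and the same bases, read on opposite strands, are counted for both. The other motifs searched were AP-1 (TGANTCA, 5.23% of all windows, 3 of 51 lower and 0 of 37 higher), C/EBP (TTGCNNAA, 8.2%, 8 of 51 and 2 of 37) and the E-box of lysosomal genes (TCACGTG, 3.24%, 1 of 51 and 1 of 37). These matches describe letters in the windows and were not used to choose genes.

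HTRA3, a secreted serine protease of the matrix, had a wide gap, and control pigs 3 and 5 were not its highest values. The controls had 72.1, 116, 68.4, 197 and 111 CPM, the DOP pigs 35.5, 52.2, 47.7, 27.002 and 42.9 CPM and the WCOC pigs 16.9, 33.5, 39.6, 31.9 and 20.5 CPM. Control pig 4 was the highest here and control pig 3 the lowest, while the highest olive-fed pig was DOP pig 2. The log2FC was −1.72 (SE 0.24, adjusted p = 0.00496, edgeR), with −1.46 in DOP and −1.98 in WCOC.

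Chaperones of the endoplasmic reticulum were among the smaller differences, and are named here after their values were seen. HSPA5, the abundant chaperone BiP, had 255 to 338 CPM in C and 161 to 238 CPM in the olive-fed pigs (log2FC −0.43, SE 0.09). HYOU1, its nucleotide exchange partner, had a log2FC of −0.45 (SE 0.08), and DNAJB11, its co-chaperone, −0.24 (SE 0.07, adjusted p = 0.0569, edgeR). None of the 3 reached the limit on log2FC.

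Cell division genes met the rule in few cases, because DOP overlapped with C. Of 25 listed genes 20 were called lower in the pooled comparison and 0 were outside the control range, and the median log2FC was −0.24 in DOP and −1.89 in WCOC. In the direct test of WCOC against DOP, 21 of them differed, against 7.76% of all genes tested. CENPA, the histone variant of centromeres, was a member outside this list. It had 3.04, 3.33, 3.41, 2.84 and 3.91 CPM in C, 2.77, 2.302, 2.56, 2.63 and 2.51 CPM in DOP and 0.425, 1.12, 0.522, 0.604 and 1.03 CPM in WCOC. All WCOC pigs lay below all DOP pigs, and WCOC was lower than DOP by a log2FC of −1.78 (SE 0.24, adjusted p = 0.00107, edgeR). KIF18A, a kinesin of the mitotic spindle, also differed between the diets (−0.84, SE 0.19, adjusted p = 0.0134, edgeR). H2AZ1, a histone variant, and KPNA2, an importin, were lower with both diets, with log2FC of −0.82 and −0.41. These 4 were chosen after their values were seen.

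Among the higher genes with a symbol, KLKB1 had the largest log2FC. Above it were 2 genes without a symbol and with means under 1 CPM, ENSSSCG00000050811 and ENSSSCG00000041094 (1.72 and 1.36). A gene this low can pass the filter on low counts mainly through the olive-fed pigs. These 2 rises may therefore be partly built into the choice of genes. KLKB1 encodes plasma prekallikrein, a protease precursor of the contact system. Control pigs 1 to 5 had 2.01, 1.97, 1.15, 1.99 and 1.99 CPM. The DOP pigs had 4.499, 5.47, 5.62, 3.23 and 3.8002 CPM and the WCOC pigs 4.25, 3.86, 2.68, 3.399 and 6.87 CPM. The 5 controls were at or below 2.01 CPM and WCOC pig 3 was the lowest of the olive-fed pigs (log2FC 1.26, SE 0.23, adjusted p = 0.00864, edgeR). KLKB1 lies at chr15:47071581-47100272. LRP2BP (chr15:46383433-46445688) and ANKRD37 (chr15:46445789-46450046), adjacent genes on the same chromosome, were higher members as well, with smaller log2FC of 0.52 (SE 0.11) and 0.52 (SE 0.18, adjusted p = 0.126, edgeR). These 2 were chosen after their values were seen.

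SLITRK6, a leucine-rich repeat protein of the cell membrane known from neurons, had 7.7002, 12.8, 6.02, 8.41 and 10.2 CPM in C, 16.3, 23.5, 18.7, 18.8 and 13.8 CPM in DOP and 16.6, 23.2, 16.6, 18.4 and 19.5 CPM in WCOC. The difference from C was similar in both diets, 1.01 and 1.06 on the log2 scale, and DOP pig 5 was next to control pig 2. GNAZ, a G protein chain, was a low gene at 0.623 to 0.796 CPM in C and 0.802 to 2.605 CPM with the olive diets (log2FC 1.22, SE 0.22). WHRN, the scaffold protein whirlin, rose from 0.924 to 1.62 CPM in C to 1.94 to 3.08 CPM (log2FC 0.85, SE 0.16). RIMKLB, an enzyme that joins glutamate to other acids, and USP43, a deubiquitinase, had log2FC of 0.81 (SE 0.16) and 0.78 (SE 0.16), and USP43 was not called without control pig 3 or 5.

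ARHGAP20, a GTPase-activating protein, was called in the pooled comparison (log2FC 0.90, SE 0.21, adjusted p = 0.0262, edgeR) but not without control pig 1, 2, 3 or 5. KIF1A, a kinesin, was at the threshold (0.69, SE 0.18, adjusted p = 0.0464, edgeR) and was called in 3 of the 15 fits that leave out 1 pig. SPTBN5, a spectrin, met the range rule but was not called (0.88, SE 0.24, adjusted p = 0.0517, edgeR). The genes without a symbol ENSSSCG00000051497 and ENSSSCG00000049358 had log2FC of 1.02 (SE 0.18) and 0.95 (SE 0.18). In all, 24 members lack a symbol, 14 higher and 10 lower, and 7 had a mean under 1 CPM.

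KIT, the receptor of stem cell factor, had 8.98, 7.604, 6.43, 5.96 and 7.39 CPM in the control pigs. The values were 16.8, 11.9, 10.3, 11.5 and 11.99 CPM in DOP and 17.999, 11.5, 11.7, 13.98 and 11.2 CPM in WCOC. Every olive-fed pig exceeded control pig 1, the highest control, as the rule requires. DOP pig 1 and WCOC pig 1 were the highest of their diets (log2FC 0.82, SE 0.15, adjusted p = 0.00845, edgeR). KIT marks mast cells, but in that list of 7 genes it was the single one called higher and RGS13, a regulator of G protein signalling, was called lower at a mean under 1 CPM. RGS13 had 0.3895 to 2.25 CPM in C and at most 0.361 CPM in an olive-fed pig. Its olive-fed values were near or under the filter on low counts, which it passed mainly through the controls. The fall of RGS13 is therefore partly built into the choice of genes. MS4A2, a chain of the mast cell IgE receptor, overlapped between the groups (13.3 to 27.4 CPM in C and 7.92 to 27.9 CPM with the olive diets). In the list of 26 growth factors and receptor kinases, KIT and HGF were called higher and 0 lower, with a median log2FC of 0.25.

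Genes of the vessel wall differed by small amounts. ERG, a transcription factor that maintains endothelial cells, had 51.2, 55.4, 43.1, 44.95 and 48.7 CPM in C, 65.2, 57.2, 61.1, 66.8 and 62.4 CPM in DOP and 82.3, 59.9, 72.8, 89.9 and 75.1 CPM in WCOC. Control pig 2 and DOP pig 2 were next to each other across the gap. The log2FC of 0.50 (SE 0.09, adjusted p = 0.00739, edgeR) was below the limit of 0.58. SCARF1, a scavenger receptor of endothelial cells, had a log2FC of 0.50 (SE 0.07, adjusted p = 0.00504, edgeR), with controls between 43.8 and 53.1 CPM and olive-fed pigs between 60.9 and 82.8 CPM. All 13 listed endothelial genes had a log2FC above 0, 3 were called higher (0.563% over all genes tested) and 0 lower (2.38%), and the median was 0.40. The list summed to 1219 to 1550.0 CPM in C, 1611 to 2090.0 CPM in DOP and 1385 to 2196 CPM in WCOC, so that WCOC pig 2 lay within the control range.

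Further members of this group, chosen after their values were seen, were NOS3, SH2D3C and EFNA1. NOS3, the endothelial nitric oxide synthase, had 54.4, 50.4, 45.4, 44.1 and 52.02 CPM in C, 61.1, 54.9, 61.4, 81.5 and 56.8 CPM in DOP and 94.8, 66.1, 75.8, 105 and 82.6 CPM in WCOC. Its difference from C was 0.36 in DOP and 0.78 in WCOC. SH2D3C, a signalling adaptor, had 0.42 and 0.96, and EFNA1, a ligand of Eph receptors, 0.62 and 0.56. Between WCOC and DOP the adjusted p (edgeR) was 0.0201 for SH2D3C and 0.0434 for NOS3, with differences below the limit on log2FC.

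PDE2A, a phosphodiesterase that degrades cyclic AMP and cyclic GMP, had the lowest adjusted p among the higher genes. Its levels were 72.3, 63.6, 59.2, 56.2 and 61.4 CPM in C, 101, 93.6, 83.7, 109 and 82.1 CPM in DOP and 91.2, 93.5, 101, 116 and 92.7 CPM in WCOC. The controls ended at 72.3 CPM, in pig 1, and the olive-fed pigs began at 82.1 CPM, in DOP pig 5. The log2FC was 0.62 (SE 0.09, adjusted p = 0.00496, edgeR), and it was called in all 15 fits that leave out 1 pig.

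ADIPOQ, which encodes the adipocyte hormone adiponectin, was the most abundant member. It had 4058, 3094, 3087, 4128 and 4089 CPM in control pigs 1 to 5. The DOP pigs had 4432, 5367, 6756, 4889.6 and 6021 CPM and the WCOC pigs 8028, 5628, 5242, 4386 and 5960.5 CPM. Control pigs 2 and 3 were lower than the other 3, which lay close below WCOC pig 4 and DOP pig 1. The log2FC was 0.62 (SE 0.15, adjusted p = 0.0356, edgeR), and the call was kept in 6 of the 15 fits that leave out 1 pig. It was lost with flow cell as a covariate, within either flow cell, with both diets as 1 group and with no filter on low counts. Against C, ADIPOQ was not called in DOP (adjusted p = 0.126, edgeR) and was called in WCOC (adjusted p = 0.0281, edgeR). In the pooled comparison it was the single adipocyte gene called among 17, and the median of that list was 0.07.

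**Figure D4:**
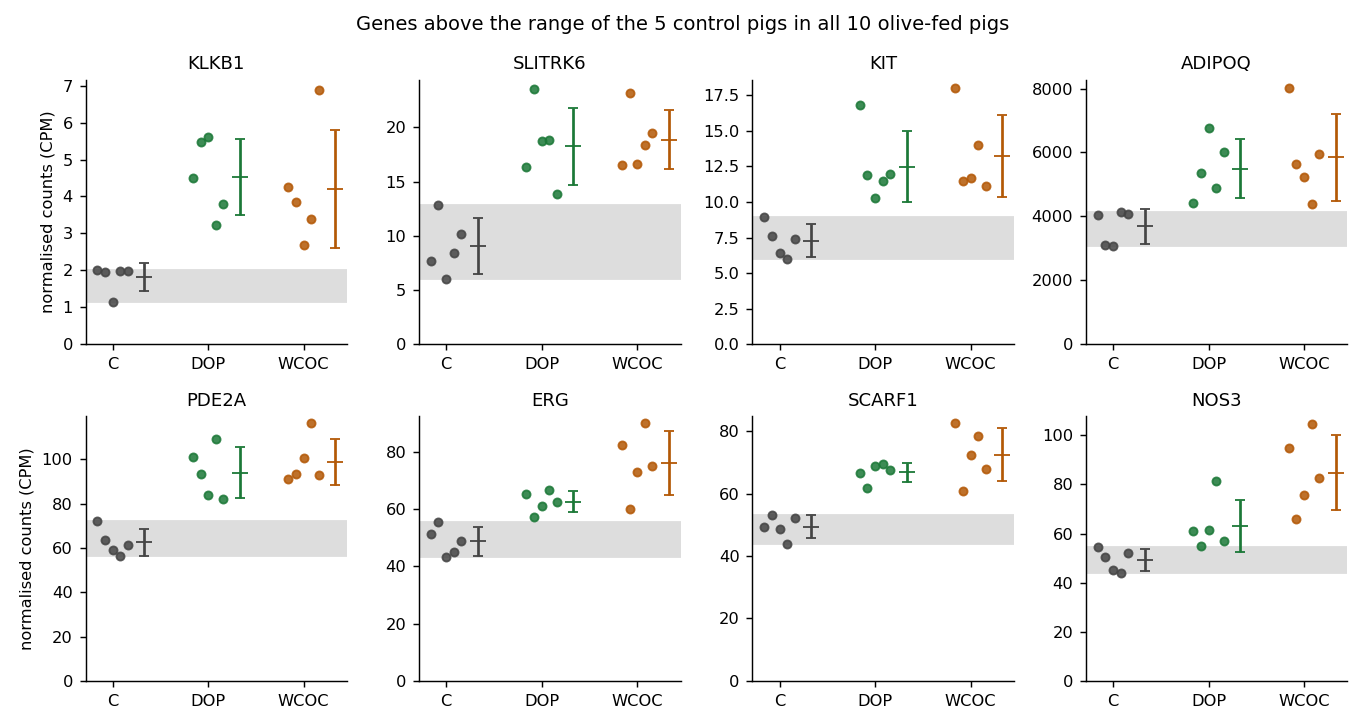
Normalised counts (CPM, y axis) of 8 genes that lay above the control range in every olive-fed pig, with points for pigs, the mean and SD of 5 pigs beside them and a grey band for the controls. In proportion to the level, the gaps are widest for KLKB1, SCARF1, KIT and PDE2A, smaller for SLITRK6 and ADIPOQ, and narrow for NOS3 and ERG.

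Each diet was also compared with the same 5 controls. In DOP vs. C 114 genes were called (0.764% of those tested), 9 of the 54 higher and 24 of the 64 lower members among them. In WCOC vs. C 933 genes were called (6.25%), with 29 of the higher and 43 of the lower members. There were 6 higher and 24 lower members called in both. The median log2FC of the higher members was 0.47 in DOP and 0.61 in WCOC, and that of the lower members −0.87 and −1.08. The difference was larger in WCOC for 42 of the 54 higher and 34 of the 64 lower genes. These comparisons share the controls, which the rule places on 1 side for both.

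The direct comparison of WCOC with DOP uses no control. It called 1158 genes (7.76%), and 4 of the 118 members (3.39%), KIF18A, CENPA and 2 genes without a symbol. ENSSSCG00000048933 was higher in WCOC by 0.88 (SE 0.17, adjusted p = 0.00757, edgeR), and ENSSSCG00000051497 by 0.61 (SE 0.19, adjusted p = 0.0483, edgeR). A gene that moves in 1 diet alone cannot meet the rule, so a low share is built into the choice of the genes. The absence of a call for the other members does not show that the diets act alike.

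**Figure D5:**
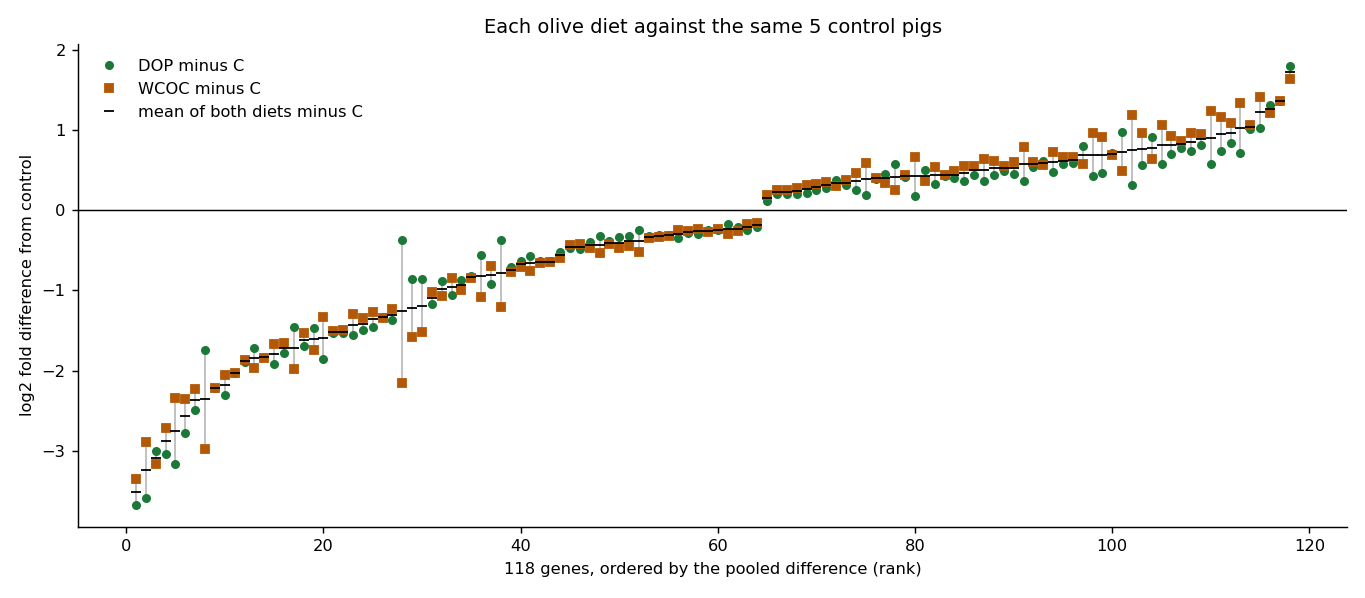
Log2 fold difference from control (y axis) of the 118 genes ordered by the pooled value (x axis, rank), with a circle for DOP, a square for WCOC and a dash for their mean. The 64 lower genes are on the left and the 54 higher genes on the right, both diets are on the same side of 0 for every gene as the rule requires, and CENPA (−0.37 in DOP and −2.15 in WCOC) has the longest line among the lower genes.

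The flow cell could be told apart from the DOP diet through control pig 5 alone. Within flow cell A, which held 4 controls and 5 WCOC pigs, 168 genes were called higher and 318 lower, 19 and 24 of the members. By the run identifiers, WCOC pigs 4 and 5 were on lane 8 of that flow cell and its other libraries on lane 2. Within flow cell B, where control pig 5 is the single control, 2 genes were called higher and 36 lower, 0 and 9 of the members. With flow cell as a covariate on all pigs the calls were 54 higher and 415 lower, and 16 and 37 of the members. Of the 35 named genes, 10 lost the call within flow cell A, 27 within flow cell B and 4 with flow cell as a covariate.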

How the data were processed

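Backfat RNA of 15 Iberian pigs was sequenced in read pairs, 1 library per pig. The authors aligned the reads to Sscrofa11.1 with HISAT2 and counted them per gene with HTSeq, and the deposited values are raw counts, not normalised and not pooled. Tool versions, whether counting used strand, and which annotation release was taken are not given in the sources used here, so counts of overlapping genes are uncertain. Lines of read pairs assigned to no gene were dropped, and 67.2% to 76.6% of the read pairs per library fell on genes.

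Counts of 30477 genes were analysed here in R 4.3.3 with edgeR 4.0.16. The filter filterByExpr kept 14918 genes (11955 with a symbol), scaling was by TMM, and all pigs entered 1 quasi-likelihood fit with a mean for each diet (common dispersion 0.0814). The contrast was the mean of DOP and WCOC minus C, with two-sided p-values adjusted by Benjamini-Hochberg over the 14918 genes. A gene was called at an adjusted p under 0.05 if its log2FC was 0.58 or more in either direction. The study tested each diet separately with DESeq2. The script was tested on simulated data.

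The range rule was applied to TMM-scaled CPM. The members and the gene lists were chosen with earlier results of these data known, and 2 genes that met the rule are not reported here. Named were members with a symbol and at least 1 CPM: the 10 highest and 10 lowest log2FC, the 5 widest gaps per direction, all members of a list, and up to 2 genes without a symbol per direction. Promoters of 37 higher and 51 lower members, 250 bases before the RefSeq start of Sscrofa11.1, were matched by symbol. Alternatives used DESeq2 1.42.0 and limma 3.58.1.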

Additional observations from a re-analysis of the deposited data

Results flagged for a closer look

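Among the named genes and 5 list sums, 120 groups of 5 pigs were examined for 1 value far from the other 4, at a limit that chance passes in about 1 of 20 groups. There were 9 such values among the named genes. Control pig 3 was lowest for KLKB1 (1.15 CPM) and highest for GNAZ (0.796 CPM), and WCOC pig 4 was the highest WCOC pig for GNAZ (2.605 CPM). ARHGAP20 (15.65 CPM) and KIF1A (2.72 CPM) each had their highest DOP value in pig 3. KIT (16.8 CPM) and ENSSSCG00000008769 (3.66 CPM) had theirs in DOP pig 1. ENSSSCG00000049358 reached 20.39 CPM in WCOC pig 1, and ENSSSCG00000051497 was lowest among WCOC pigs in pig 5 (1.71 CPM).

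The list sums gave 4 such values. The skeletal muscle list reached 63500.0 CPM in DOP pig 5 and 1153 CPM in WCOC pig 4. DOP pig 2 had the highest sum of red blood cell genes (15840.0 CPM) and of immediate early genes (2460.0 CPM).

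ENSSSCG00000051497 was higher in WCOC than in DOP by a log2FC of 0.61 in the edgeR test of that difference.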

How the results depend on the processing

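Of 1014 values of the 35 named genes in 29 other settings, 875 stayed on their side of the limits, 133 lost the call and 6 gained it. In the fits that leave out 1 pig, called genes ranged from 26 to 113 higher and 151 to 419 lower, and genes meeting the range rule from 59 to 118 higher and 66 to 193 lower.

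Genes called higher moved from 84 to 149 with DESeq2, 183 without the limit on log2FC, 54 with flow cell as a covariate, 168 within flow cell A (WCOC alone against 4 controls) and 54 without DOP pigs 2 and 5, an alternative chosen after seeing the data. That alternative gave 96 higher and 97 lower genes by the range rule, and scaling by library size alone 32 and 26. Calls were 39 higher and 189 lower with both diets as 1 group, and 2 and 36 within flow cell B, where the lone control was assumed to vary like the DOP pigs. With the macrophage identity list as a covariate they were 0 and 0 (1132 genes with an unadjusted p under 0.05). A test against the limit itself (glmTreat) called 0 and 32, with 106 and 420 genes at an unadjusted p under 0.05.

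The replicate number as a block gave 15 higher and 75 lower calls. Same-numbered pigs of different diets had correlations of −0.495 to 0.345, and other pairs −0.518 to 0.526, so the numbers do not pair the pigs. In DESeq2 39 genes had no adjusted p. Precision is limited by 5 pigs per diet and, for the 7 members under 1 CPM, by few reads.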
